A study of Homo sapiens with 12 samples.

Results

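BCL2 family genes set the threshold at which a cell enters apoptosis through its mitochondria. Of the 28265 genes in the expression table, 10 members were taken by gene name: the pro-survival genes BCL2L1 and MCL1, the pro-death effectors BAX and BAK1, and the BH3-only genes BID, BAD, BIK, PMAIP1, BCL2L11 and BMF. All 10 were listed with an adjusted p. In the m6A table, 28 of 46178 regions carried the name of a member, 7 under the 2 pro-survival genes and 21 under pro-death genes. BAK1 and BIK had no region there. The cells were HepG2, a long-cultured human liver cancer line, given toosendanin, a plant triterpenoid, or labelled control. For each condition 3 libraries of RNA pulled down with an m6A antibody (IP) and 3 of RNA without pull-down (input) were sequenced, 12 in all. The labels give no dose, time or vehicle, and do not say whether libraries came from separate cultures, which leaves p-values for expression to speak only of variation among these libraries, possibly technical.

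BAX and BAK1 proteins open the outer mitochondrial membrane, which lets cytochrome c reach APAF1 and start the caspases. BCL-XL, the long product of BCL2L1, and MCL1 hold them back. BH3-only proteins respond to stress by binding the pro-survival proteins or, for some, the effectors directly, and several are controlled by how much transcript is made. N6-methyladenosine (m6A) is a mark within mRNA that reader proteins bind, with effects on transcript decay and translation.

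The tables hold comparisons and summed counts, not values per library, so the spread between libraries is seen only through the deposited standard errors. Over all regions the sums lay between 24253006 counts for toosendanin input and 42316089 for control IP. Hepatocyte markers were abundant, with mean normalized counts from 5546 for TTR to 411979 for APOB over all 9. Of 13 markers of fibroblasts, endothelium and blood, 5 were at 0 (COL1A1, DCN, KDR, PTPRC and CD3E). The highest of these 13 was CD68, a lysosomal protein of macrophages that other cells also make, at 1426, and it stood at 1.41 ± 0.09 (log2 fold change ± standard error) in the authors' deposited table. PDGFRB, at a mean of 36.1, was the next, with -2.25 ± 0.87 by the authors' deposited table. Their part in the results was not tested.

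Of the members, PMAIP1 fell and BIK rose in expression, both BH3-only genes, while the other 8 did not pass. That is 2 of 10 members at an adjusted p under 0.05, against 31.4% of all 16552 genes with an adjusted p, 15.7% in each direction. Both also changed at least 2-fold; 7.29% of all tested genes had both an adjusted p under 0.05 and a change of at least 2-fold. By the authors' deposited table, the members' median log2 fold change was 0.05, beside a median near 0 (-0.00023) over all tested genes, with 7 of 10 positive. The pro-survival median was 0.05 and the pro-death median 0.10 in the authors' deposited table, and a difference between the roles was not tested.

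**Figure D1:**
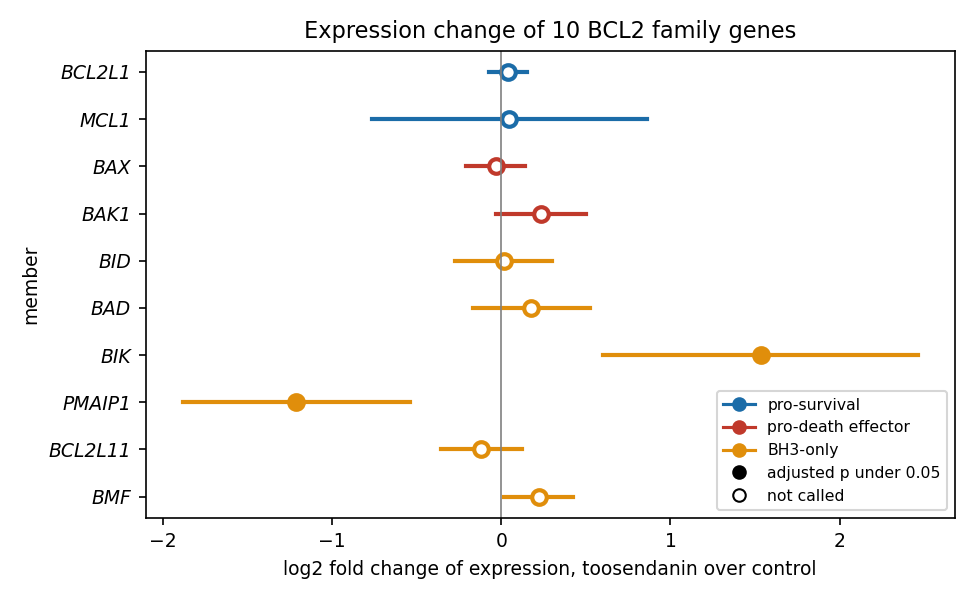
Log2 fold change of expression, toosendanin over control, for the 10 members as the authors deposited it (points), with 95% Wald intervals (lines); filled points have an adjusted p under 0.05. PMAIP1 lies to the left of 0 and BIK to the right, both with intervals clear of 0, while MCL1 has a wide interval around 0.

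PMAIP1 encodes NOXA, a BH3-only protein that binds MCL1. In the authors' deposited DESeq2 table its log2 fold change was -1.21 ± 0.34 (every ± gives the deposited standard error), to 0.43 times control (95% interval 0.27 to 0.69; adjusted p = 0.00216). Its mean normalized count was 73.8, so the estimate rests on few reads. The summed input counts of its m6A region were 65 in control and 23 after toosendanin. Centred over genes, this is a log2 change of -1.01 (95% counting interval -1.70 to -0.33). The input libraries may be those behind the expression test, so this second value is not independent of the first.

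BIK encodes a BH3-only protein of the endoplasmic reticulum. It stood at 1.53 ± 0.47 in the authors' deposited DESeq2 table, 2.89 times control (95% interval 1.52 to 5.51; adjusted p = 0.00567). With a mean normalized count of 43.9 it was the least counted member, and with no m6A region it has no summed input to set beside that value. Standard errors of PMAIP1 and BIK, 0.34 and 0.47, lay near the medians of the 500 genes closest to each in mean count, 0.36 and 0.47.

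The promoters of 3 members are shown because the genes of factors that can bind the marked letters changed in expression. JUN, which pairs with ATF proteins at cyclic AMP response elements, and FOXO3, a forkhead activator known for driving BCL2L11, both rose, as given with the other pathway genes. Each window is the 250 bases before the gene's start in RefSeq, on the gene's strand, 5′ to 3′ (GRCh38.p14). Capitals mark TGACGT, the core of the response element, or GTAAACA, a forkhead site, either also as the reverse complement (ACGTCA and TGTTTAC); none of the marked matches overlap. PMAIP1 lies at chr18:59899746-59899995 on the plus strand, BAD at chr11:64284705-64284954 on the minus strand and BCL2L11 at chr2:111120664-111120913 on the plus strand.
PMAIP1: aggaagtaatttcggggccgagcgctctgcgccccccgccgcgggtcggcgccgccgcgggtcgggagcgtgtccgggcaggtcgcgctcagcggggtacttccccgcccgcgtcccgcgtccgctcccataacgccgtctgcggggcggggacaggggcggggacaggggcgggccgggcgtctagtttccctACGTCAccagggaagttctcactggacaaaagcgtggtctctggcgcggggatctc
BAD: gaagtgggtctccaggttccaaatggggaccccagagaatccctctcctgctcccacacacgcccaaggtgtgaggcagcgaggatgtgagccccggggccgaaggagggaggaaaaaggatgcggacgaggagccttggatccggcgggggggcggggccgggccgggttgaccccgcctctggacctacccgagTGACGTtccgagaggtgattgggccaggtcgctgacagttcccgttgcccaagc
BCL2L11: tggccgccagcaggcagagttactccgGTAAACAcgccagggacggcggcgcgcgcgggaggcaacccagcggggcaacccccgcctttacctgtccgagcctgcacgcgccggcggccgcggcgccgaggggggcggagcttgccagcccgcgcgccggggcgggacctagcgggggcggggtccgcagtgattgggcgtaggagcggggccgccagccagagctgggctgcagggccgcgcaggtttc

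The match in PMAIP1 began 56 bases before the gene's start and that in BAD 54 bases before it. The forkhead letters in BCL2L11 began 223 bases before the start. Of the 8 members with a promoter entry, 2 held TGACGT and 1 held GTAAACA, against 7.10% and 2.98% of 35116 RefSeq promoters in windows of the same length. Members are counted per gene, while the background counts promoter entries, of which a gene can have several. The units are therefore unlike, and enrichment was not tested. A match is a description of the letters and not a binding site. Of the members with TGACGT, PMAIP1 fell, and BAD, which binds BCL-XL when it is not phosphorylated, stood at 0.18 ± 0.18 (adjusted p = 0.511) in the authors' deposited DESeq2 table.

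Among the other BH3-only members, BCL2L11, which encodes BIM, stood at -0.12 ± 0.12 in the authors' deposited DESeq2 table (adjusted p = 0.528). Its 95% interval of -0.36 to 0.12 holds changes of up to 0.78 times or 1.09 times control. BMF, a BH3-only protein that binds dynein light chains, was listed at 0.22 ± 0.10 in the authors' deposited DESeq2 table. It had an unadjusted p of 0.0342 but an adjusted p of 0.0951, and so did not pass. The summed inputs of BMF, 1071 in control and 909 after toosendanin, gave a centred log2 change of 0.25 (95% counting interval 0.12 to 0.38). BID, which is cleaved to link death receptors to mitochondria, was at 0.01 ± 0.15 in the authors' deposited table. BAD overlaps the gene GPR137 and BID the microRNA gene MIR3198-1, and whether counting used strand is not stated in the sources here, so reads of such pairs cannot be told apart.

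The effectors did not pass either. BAX stood at -0.03 ± 0.09 (95% interval -0.21 to 0.14) and BAK1 at 0.24 ± 0.14 (95% interval -0.03 to 0.50) in the authors' deposited table, with adjusted p of 0.845 and 0.188 by DESeq2. A change of BAX beyond 0.87 or 1.10 times control therefore lies outside its interval.

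The 2 pro-survival genes had near-equal estimates of unequal precision. BCL2L1, which overlaps its antisense gene BCL2L1-AS1, was listed at 0.04 ± 0.06 and MCL1 at 0.05 ± 0.41 in the authors' deposited table. For BCL2L1 the 95% interval ran from 0.95 to 1.11 times control. That of MCL1 ran from 0.59 to 1.82 times, so neither a loss nor a gain of that size can be told from no change. Mean normalized counts of the pair were alike at 5475 and 4250. The standard error of MCL1 exceeded that of 99.0% of the 500 genes closest in mean count, whose median was 0.08. Values per library were not analysed here. Summed over its m6A regions, MCL1 had 5123 input counts in control and 3804 after toosendanin, a centred log2 change of 0.06 (95% counting interval -0.005 to 0.12). The same sums for BCL2L1, 8392 and 5663, gave -0.08 (95% counting interval -0.13 to -0.03), of the opposite sign to the deposited estimate. Both differences are small, and counting intervals leave out the spread between libraries.

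**Figure D2:**
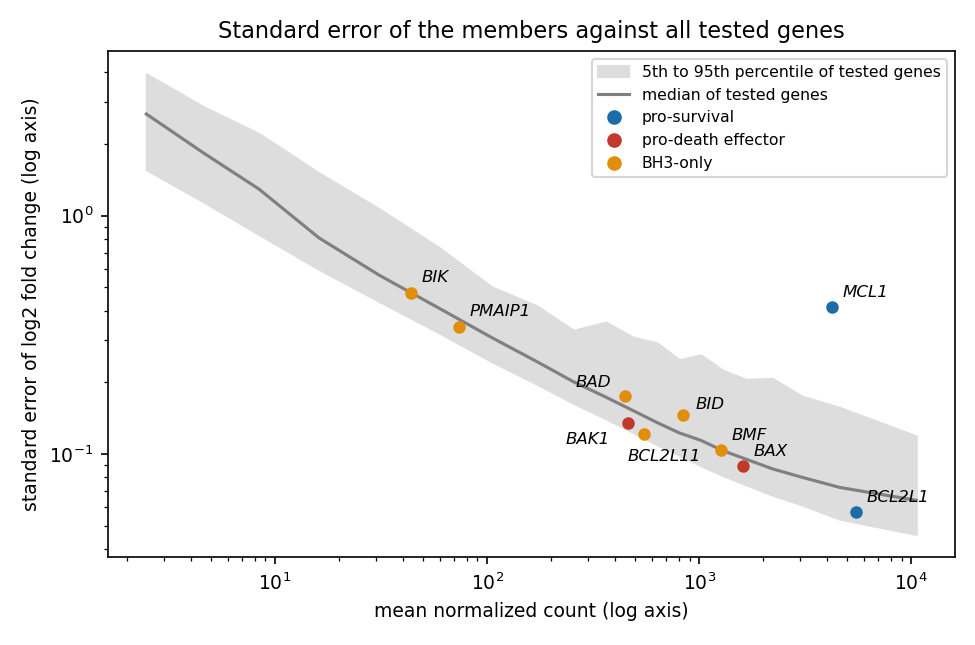
Standard error of the deposited log2 fold change against mean normalized count (both axes log) for the 10 members (points) and for all genes with an adjusted p (grey line, median; band, 5th to 95th percentile, in 20 bins of mean count). MCL1 at 0.41 lies above the band; the other 9 members lie inside it.

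Among the 10 members, the m6A calls lay in the 2 pro-survival genes. By FDR under 0.05 in the authors' deposited table, 3 of the 15 member regions with an FDR were called, all lower after toosendanin: 2 in BCL2L1 and 1 in MCL1. Over all 24688 regions with an FDR, 8.95% were called, 6.24% lower and 2.71% higher. That excess of lower calls depends on scaling: 69.7% of calls were lower as deposited, 24.4% with the counts scaled to the 4 totals and 38.7% after centring on the median region. The deposited values lay below the scaled ones by a median of -0.09 on the log2 scale. Among members, 2 regions stayed called, both lower, and 0 were called higher under either scaling. None of the 9 pro-death regions with an FDR passed, and 1 had an unadjusted p under 0.05. Over all 28 member regions the deposited log2 fold change of IP over input had a median of -0.19, with 20 negative, against -0.06 over all regions, 58.3% of them negative. Scaled to totals, the member median was -0.07 with 16 of 28 negative, against 0.03 over all regions. The deposited m6A p-values match the counting error of 4 pooled sums, so they hold no spread between libraries and are smaller than a test over libraries could give where libraries vary. Regions are numbered here in the order the table lists them; it holds no coordinates, so their place in the transcript and their sequence are not shown.

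BCL2L1 had 4 regions, and region 3 held 89.1% of the gene's counts. That region had 12049 IP and 7060 input counts in control, and 7066 IP and 4707 input counts after toosendanin. Scaled to the 4 totals, IP over input was 1.38 (95% counting interval 1.34 to 1.42) in control and 1.25 (1.21 to 1.30) after toosendanin. The authors' deposited table gives a log2 fold change of -0.26 (95% counting interval -0.32 to -0.19; FDR = 3.05e-11). With scaling to totals it was -0.14, so the size, though not the call, depends on how the libraries were scaled. Scaled IP counts of this region were lower by a log2 change of -0.23 and input counts by -0.09.

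MCL1 had 3 regions, of which region 2 held 88.9% of the counts. Its IP and input counts were 8090 and 4225 in control and 5243 and 3239 after toosendanin. Scaled IP over input went from 1.54 (95% counting interval 1.49 to 1.60) to 1.35 (1.29 to 1.41). In the authors' deposited table its log2 fold change was -0.29 (95% counting interval -0.38 to -0.21; FDR = 4.6e-10), and with scaling to totals -0.19. Here scaled IP counts were lower by -0.09 on the log2 scale while input counts were higher by 0.11, so both parts of the ratio moved it downward. Regions 1 and 3, with 1623 and 966 counts over the 4 sums, were listed at -0.26 and 0.12 and did not pass (FDR = 0.325 and 0.78 in the authors' deposited table).

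The other called region of BCL2L1, region 2, rested on 601 counts. It had 175 IP and 180 input counts in control and 96 and 150 after toosendanin, a deposited log2 fold change of -0.70 (95% counting interval -1.17 to -0.22) with an FDR of 0.0473 in the authors' deposited table. Its scaled IP over input was 0.78 (95% counting interval 0.64 to 0.97) in control and 0.53 (0.41 to 0.69) after toosendanin. Unlike the other called member regions, it was therefore not enriched over input in control. Scaled to totals the log2 fold change was -0.56 with an adjusted p of 0.214, and the call was lost. The remaining BCL2L1 regions were listed at -0.50 and -0.19 in the authors' deposited table, so all 4 were negative.

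**Figure D3:**
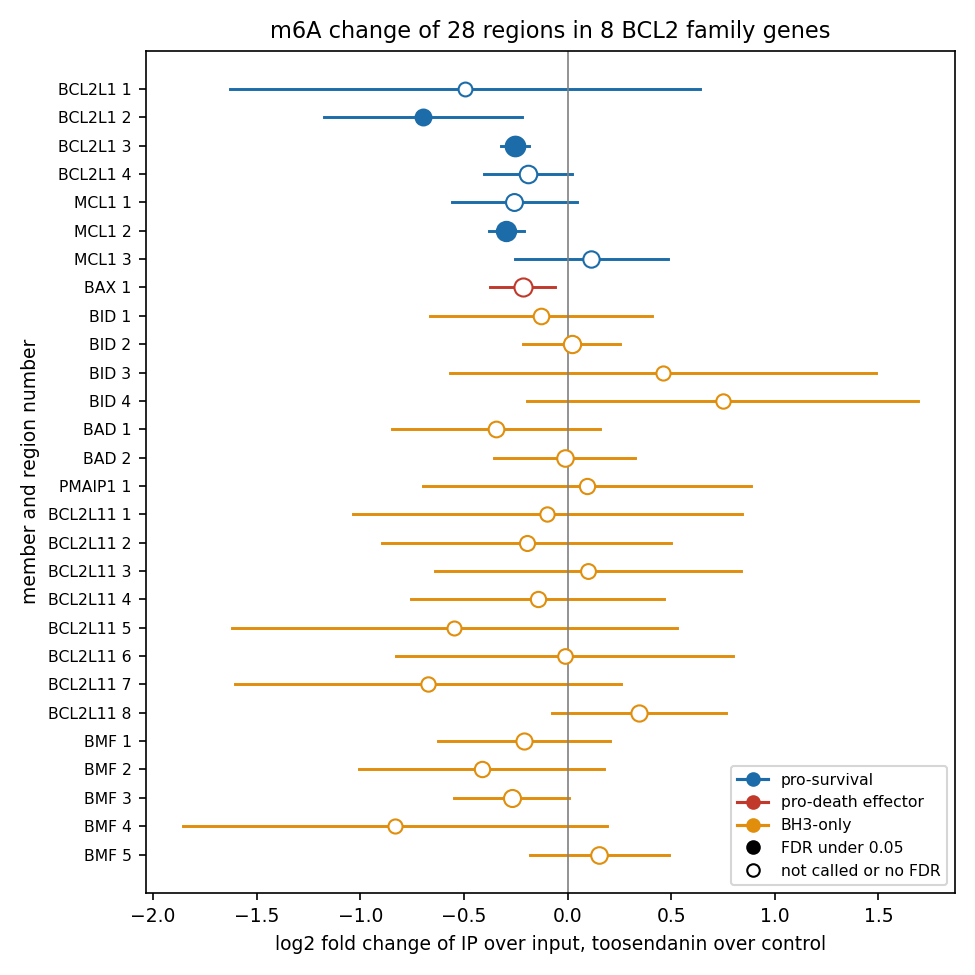
Deposited log2 fold change of IP over input, toosendanin over control, for the 28 regions of 8 members (points, larger with more counts), with 95% Poisson intervals (lines); filled points have an FDR under 0.05. The 3 filled points are BCL2L1 regions 2 and 3 and MCL1 region 2. The intervals of most pro-death regions are several times wider than those of BCL2L1 region 3 and MCL1 region 2, while BCL2L1 region 2 also has a wide interval.

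Depth differed with role, and its part in the calls was not tested. Counts over the 4 sums were 30882 for BCL2L1 region 3 and 20797 for MCL1 region 2, but at most 5480 for any pro-death region, that of BAX. Among the 2053 regions of at least 10000 counts, 26.5% were called lower and 11.9% higher, which is the background for these 2; scaled to totals those shares were 6.87% and 26.3%. The single BAX region stood at -0.22 (95% counting interval -0.38 to -0.06) with an FDR of 0.0696 in the authors' deposited table, and its interval overlaps those of both pro-survival regions. BMF region 3 had the control level of MCL1 region 2, 1.54, and a deposited log2 fold change of -0.27 (95% counting interval -0.55 to 0.01; FDR = 0.241 in the authors' deposited table) on 1854 counts. A difference in m6A response between pro-survival and pro-death genes was not tested and is not shown by these calls.

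PMAIP1 had the highest control IP over input of the 28 regions, 2.32 (95% counting interval 1.75 to 3.08), above 93.7% of all regions in the table. Its counts were 187 IP and 65 input in control and 71 and 23 after toosendanin. Scaled IP and input counts were lower together, by -0.86 and -1.01 on the log2 scale, and the ratio after toosendanin was 2.57 (1.61 to 4.12). The deposited log2 fold change of m6A was 0.09 (95% counting interval -0.70 to 0.89) in the authors' deposited table, with no FDR, so a change within that interval was not detectable at this depth.

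BCL2L11 had 8 regions, the most of any member, with log2 fold changes from -0.67 to 0.34 in the authors' deposited table, and 1 had an FDR (0.351). Its best counted region, region 8, had 306 IP and 195 input counts in control and 220 and 110 after toosendanin. The 5 BMF regions ranged from -0.83 to 0.15, the 4 of BID from -0.13 to 0.75 and the 2 of BAD from -0.35 to -0.01 in the authors' deposited table. In control, IP over input was above 1 in 11 of 28 member regions. The best counted regions split into those above 1, in BCL2L1, MCL1, BCL2L11, BMF and PMAIP1, and those below it, in BAX at 0.61, BID at 0.66 and BAD at 0.58, and each stayed on its side after toosendanin.

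**Figure D4:**
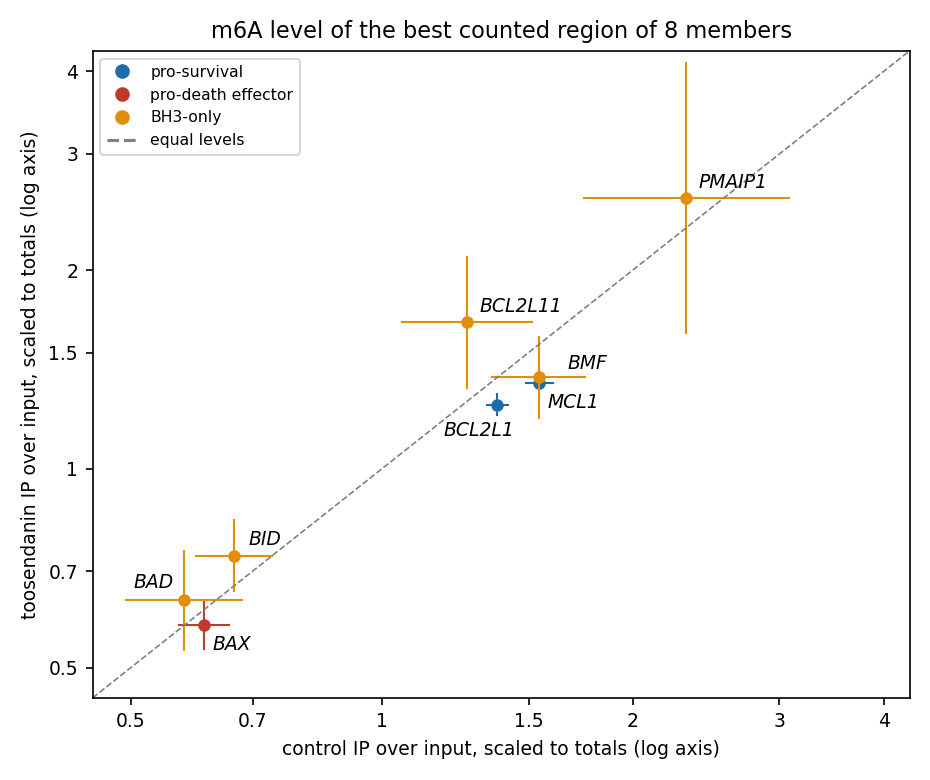
IP over input scaled to the 4 count totals in control (x) and after toosendanin (y), both on log axes, for the best counted region of 8 members, with 95% Poisson intervals; the dashed line marks equal levels. BCL2L1 and MCL1 lie below the line with short intervals, and BAX, BID and BAD lie below 1 on both axes.

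The rest of the family was taken from a list of 13 further genes, of which 11 had an adjusted p, 2 rose and 0 fell. In the authors' deposited DESeq2 table, BCL2L2, the pro-survival gene for BCL-W, stood at 0.75 ± 0.25 (adjusted p = 0.0111). Its summed inputs, 1645 in control and 1405 after toosendanin, gave a smaller centred log2 change of 0.26 (95% counting interval 0.16 to 0.36), and its standard error exceeded that of 98.0% of the 500 genes closest in mean count. It is uncertain, because the readthrough gene BCL2L2-PABPN1, which shares its exons, was listed at -0.52 ± 0.20 (adjusted p = 0.0365) by the authors' deposited DESeq2 table. HRK, a BH3-only gene, stood at 3.89 ± 1.51 (adjusted p = 0.0336) in the authors' deposited DESeq2 table on a mean normalized count of 6.42. The BH3-only gene BBC3, which encodes PUMA, at -0.10 ± 0.14, the effector relative BOK at 0.05 ± 0.08 and the pro-survival BCL2 at -0.03 ± 0.59 were not called by the authors' deposited table. Nor were BCL2A1 at -4.58 ± 2.91 or BCL2L12 at -0.51 ± 0.28 in the authors' deposited table. BCL2 had a mean normalized count of 26.0 and summed inputs of 15 in control and 1 after toosendanin. These gave a centred log2 change of -3.42 (95% counting interval -6.34 to -0.50), far from the deposited estimate, so its change is uncertain. The mitophagy receptors BNIP3 at 0.08 ± 0.08 and BNIP3L at 0.08 ± 0.09, and BCL2L13 at 0.05 ± 0.08 and BCL2L14 at 0.18 ± 0.69, were not called either in the authors' deposited table. BCL2L10 had no adjusted p and BCL2L15 had a mean of 0.

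Downstream of the family, 4 of 9 genes of mitochondrial release and the apoptosome rose and 0 fell, with a list median of 0.17 in the authors' deposited table. Cytochrome c, CYCS, was 0.49 ± 0.08 higher, the flavoprotein AIFM1 0.40 ± 0.07 higher, and the channels VDAC2 and VDAC1 0.35 ± 0.07 and 0.17 ± 0.06 higher in the authors' deposited table. Of 7 inhibitors of apoptosis 2 rose and 1 fell: XIAP, which blocks caspases directly, at 0.40 ± 0.12, BIRC7 at 6.17 ± 0.91 and the mitotic gene BIRC5 at -2.50 ± 0.16 in the authors' deposited table. The standard error of BIRC7 exceeded that of 98.8% of the 500 genes closest in mean count, and its m6A regions 1 and 2 held 9 and 4 input counts in control.

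Death receptor genes split into 2 higher and 3 lower of 9 tested. The ligand TNFSF10 (TRAIL) at 0.52 ± 0.17 and its receptor TNFRSF10B at 0.48 ± 0.17 rose in the authors' deposited table. The receptors FAS at -0.58 ± 0.19 and TNFRSF1A at -0.29 ± 0.09 fell there, as did the adaptor FADD at -0.22 ± 0.09, by the authors' deposited table. The size of the TNFRSF10B rise is uncertain, as its standard error exceeded that of 97.8% of the 500 genes closest in mean count. Scaled to totals, input counts of the TNFRSF10B m6A regions changed by log2 values from 0.21 to 0.36, below the deposited 0.48. Of 8 transcription factors known to act on BH3-only genes, 3 rose and 2 fell. JUN at 1.44 ± 0.13, the stress factor DDIT3 (CHOP) at 1.20 ± 0.14 and FOXO3 at 0.96 ± 0.18 were higher, and E2F1 at -0.67 ± 0.16 was among those lower, in the authors' deposited table. The size of the FOXO3 rise is uncertain. Its standard error exceeded that of 93.2% of the 500 genes closest in mean count. Input counts of its m6A regions, scaled to totals, changed by log2 values from -0.03 to 0.56, below the deposited 0.96. Of 10 partners and turnover genes 3 fell and 0 rose: YWHAE, a 14-3-3 protein of the kind that holds BAD, at -0.27 ± 0.05, the light chain DYNLL1 at -0.21 ± 0.06, and FBXW7, a ubiquitin ligase subunit for MCL1, at -0.45 ± 0.13 in the authors' deposited table. The medians of the 7 lists lay between -0.02 and 0.17. Their shares of called genes are to be read against the 31.4% over all genes, 15.7% in each direction. Abundant genes were called more often: 5205 genes were called in all, and 3974 when only genes in the upper 50% of means were tested. CYCS, AIFM1, VDAC1 and VDAC2 each had a mean count above at least 86.2% of tested genes. A background of like mean count was not computed for the lists.

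**Figure D5:**
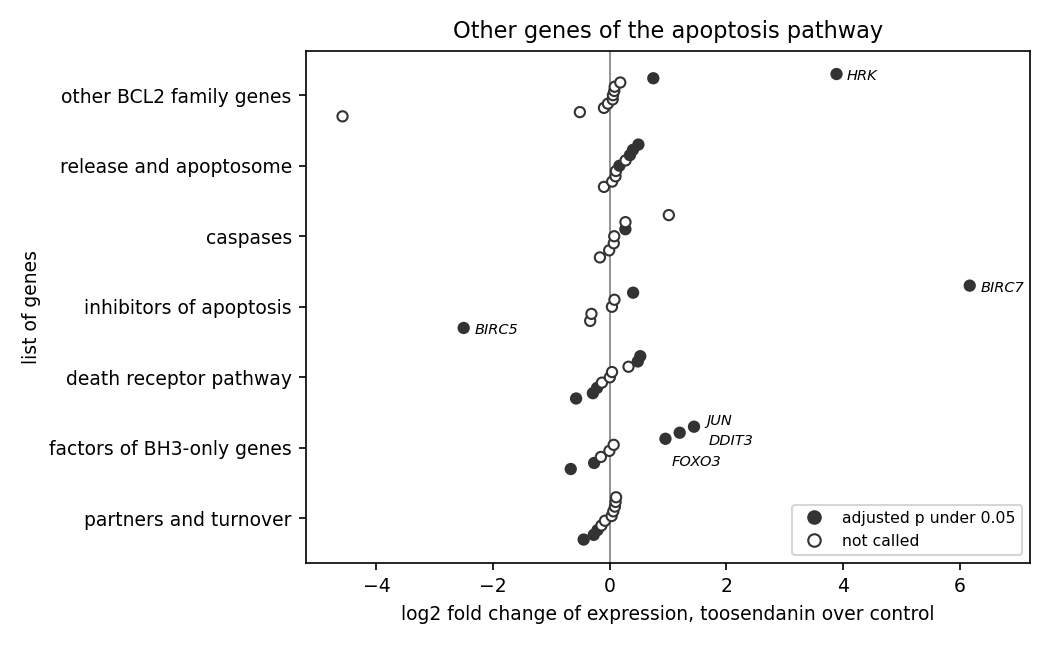
Deposited log2 fold change of expression, toosendanin over control, for the genes with an adjusted p in 7 lists around the family (1 point per gene, spread vertically for visibility); filled points have an adjusted p under 0.05, and called genes beyond 0.9 on the log2 scale are named. Most genes lie near 0, with BIRC7 at 6.17 and HRK at 3.89 the highest of those called and BIRC5 at -2.50 the lowest.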

How the data were processed

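Expression and m6A were compared between toosendanin and control HepG2 cells from 2 deposited tables. Per the submitters' processing notes, HISAT2, StringTie and DESeq were used. For versions, genome build, annotation, region caller and the libraries behind the expression test, the sources here state nothing. Libraries carried unique molecular identifiers, per the labels' protocols. Per the file headers, the authors deposited a DESeq2 result: a mean normalized count (signal), a log2 fold change, its standard error, a Wald score, a p-value and an adjusted p. For m6A the authors deposited 1 read count per condition and library type (taken as sums over libraries), a log2 fold change, a p-value and an FDR per region. In 99.5% of regions those p-values implied an error that matched the Poisson error from the 4 sums to 1%, so m6A intervals hold counting error only. Positive values mean higher after toosendanin; deposited changes correlated with those of summed input (Pearson r 0.94 across 7947 genes in the upper 50% by mean, which are not independent replicates).

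Calls used the deposited adjusted p or FDR under 0.05; no count model was fitted, since values per library were not analysed here. Intervals are 95% Wald intervals; IP over input was scaled to the 4 column totals. Genes were matched by exact name. Regions with no FDR had a median of 166 counts over the 4 sums, those with one 1347. All members, all called and best counted regions, all further family genes and up to 4 genes per list with the smallest adjusted p were named; FADD, CD68, PDGFRB and the called m6A regions of list genes were named after their values were seen. Some list genes are not reported here. Members and lists were chosen with earlier results of these data known. The summed-count test was tested on simulated Poisson counts that held no spread between libraries, so its behaviour under such spread was not tested. Promoters came from RefSeq (GRCh38.p14). Python 3.11.15, numpy 2.4.6, pandas 2.3.3, scipy 1.17.1 and matplotlib 3.10.9 were used.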

Additional observations from a re-analysis of the deposited data

How the results depend on the processing

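Adjusted over genes in the upper 50% of means, expression calls among the 10 members and among pro-death members went from 2 to 0 each, because PMAIP1 and BIK lie below that limit and were no longer tested. At an adjusted p under 0.01, calls went from 2 to 0 among further family genes and from 5 to 3 among death receptor genes, while PMAIP1 and BIK stayed called. At FDR under 0.01, with scaling to totals, with centring on the median region and with a statistic divided by its robust SD of 1.53, m6A calls among members went from 3 to 2, within 1.5 times, and the region lost was BCL2L1 region 2. BCL2L1 region 3 and MCL1 region 2 were called under all 6 alternatives for m6A. Given their deposited FDR, labels and counts, limits of FDR under 0.01, 1 gene per region or 50 counts per sum could not drop them. All 6 alternatives reuse the same pooled sums, so none measures the spread between libraries. Under the widened statistic the adjusted p of these 2 regions was 0.000439 and 0.00132, and calls over all regions went from 2209 to 357. At FDR under 0.01 calls over all regions went to 1229. Values per library were not analysed here, so leaving out replicates was not run. No paired analysis was possible because the columns used carry no replicate numbers. Regions of pro-death members had a median of 350 counts over the 4 sums and those of pro-survival members 1623; the part of depth in the calls was not tested.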

Other observations

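m6A of the genes around the family was not described above. Its counts are to be read against all 24688 regions with an FDR, of which 6.24% were lower and 2.71% higher. Of 16 regions with an FDR in the further family genes, 2 were lower and 0 higher in the authors' deposited table. They were BCL2L2 region 1 at -0.34 (95% counting interval -0.56 to -0.13; FDR = 0.0284) and BCL2L13 region 5 at -0.31 (-0.45 to -0.16), each the best counted region of its gene. Another region, listed under BCL2L2 together with its readthrough gene, was not counted here. Of 14 regions of the transcription factors 3 were lower and 0 higher. JUN region 2 went from 5987 IP and 1679 input counts to 10158 and 3354, and so had more of both after toosendanin, with a log2 fold change of IP over input of -0.32 in the authors' deposited table. ATF4 regions 2 and 3 were listed at -0.35 and -0.15 in the authors' deposited table.

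Partners and turnover genes went both ways, with 3 regions higher and 3 lower of 46. Both dynein light chains that bind BH3-only proteins were among them: DYNLL1 region 2 stood at 0.15 and DYNLL2 regions 3 and 4 at -0.65 and -0.39 in the authors' deposited table. The 14-3-3 genes also split, with YWHAB region 1 at 0.12 and YWHAZ region 5 at 0.24 against YWHAE region 1 at -0.08 in the authors' deposited table. Of 22 regions of mitochondrial release genes 1 was higher and 0 lower, VDAC1 region 2 at 0.11 in the authors' deposited table. Of 26 death receptor regions 1 was lower and 0 higher, TNFRSF10B region 2 at -0.18 in the authors' deposited table. Both of these, JUN region 2, ATF4 region 3, DYNLL1 region 2, DYNLL2 region 4, YWHAB region 1 and YWHAE region 1 had at least 10000 counts over the 4 sums. Among all such regions 26.5% were lower and 11.9% higher as deposited, and 6.87% and 26.3% when scaled to totals. Of the inhibitors of apoptosis, 0 of 22 regions passed by the deposited FDR. A difference between these genes was not tested, and these directions are those of the deposited scaling. Some of the called regions were not enriched over input in control. There the scaled IP over input was 0.62 for VDAC1 region 2, 0.45 for ATF4 region 2, 0.90 for BCL2L2 region 1 and 0.91 for DYNLL1 region 2. It was above 1 in JUN region 2, ATF4 region 3, BCL2L13 region 5 and TNFRSF10B region 2, among others. Scaled to totals, IP over input of YWHAE region 1 was 1.18 in control and 1.19 after toosendanin, the opposite direction. The other called regions named here kept their direction, but whether they stayed called under this scaling is not reported. Among them, counting intervals of the scaled ratio in control and after toosendanin overlapped in TNFRSF10B region 2 (1.09 to 1.20 and 1.02 to 1.13). They also overlapped in BCL2L2 region 1, BCL2L13 region 5 and ATF4 region 3, but not in the rest.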
